A study of Mus musculus with 32 samples.

Results

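The 10 genes described here belong to the unfolded protein response and the integrated stress response, and were chosen by name: Ddit3, Atf4, Atf5, Trib3, Chac1, Xbp1, Herpud1, Dnajb9, Hspa5 and Pdia4. They are 10 of 28786 gene names on the array, are read by 13 probes, and all 10 were among the 20537 genes that passed the filter on dim probes. Mouse thymocytes were profiled on 32 one-colour arrays before and at 2 h and 4 h after 5 Gy of gamma radiation. Mice that carried proline (P72) or arginine (R72) at codon 72 of p53 gave 4 arrays for each of the times 0 h, 2 h and 4 h. Mice without p53 (p53-/-) and mice with wild-type p53 (p53+/+) were each represented by a pair of untreated arrays and by single ones at 2 h and at 4 h. All mice were of strain C57Bl/6 and 6 weeks old, and thymocytes of 2 mice were pooled for each sample. The 4 P72 and 4 R72 samples of each time came from separate experiments. Nothing in the labels says whether the p53+/+ and p53-/- arrays did. P-values for p53+/+ and p53-/- cells come from a fit over all 32 arrays, where most replicate spread is that of P72 and R72 cells. They assume that p53+/+ and p53-/- arrays vary likewise, which single arrays at 2 h and 4 h cannot check. Where only the p53+/+ and p53-/- arrays were fitted, p-values may measure technical spread.

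The unfolded protein response starts when misfolded proteins gather in the endoplasmic reticulum (ER), where the kinase PERK (Eif2ak3), the nuclease IRE1 (Ern1) and ATF6 act as sensors. PERK and the other eIF2-alpha kinases slow general translation while they favour translation of the transcription factor ATF4, whose targets include Ddit3 (CHOP), Trib3, Chac1 and Asns, and this branch is called the integrated stress response. IRE1 splices the Xbp1 transcript, and XBP1 and ATF6 raise ER chaperones such as Hspa5 (BiP) and Pdia4. The arrays read transcript level only, so neither Xbp1 splicing nor ATF4 translation was measured, and in bulk samples fewer cells of a type and less RNA per cell cannot be told apart.

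Promoter sequences of 4 of the genes are shown because they hold the letters by which the 2 branches are usually recognised. Windows run from 250 bases before to 50 after the annotated start (RefSeq, GRCm38.p6), and all 10 genes matched, Atf5 with 2 windows. Capitals mark matches, searched on both strands, to 3 motifs. These are the C/EBP-ATF response element TGATGNAA (CARE), the ER stress response element (ERSE, CCAAT and CCACG with any 9 bases between them) and its second form (ERSE-II, ATTGG and CCACG with any 1 base between them). No 2 motif matches overlapped in these windows. A CARE match was present in Chac1, Trib3 and Herpud1, which is 3 of the 10 genes, against 3.97% of all 32851 windows. The ERSE was matched in Hspa5 and in 0.119% of all windows, and the ERSE-II in Herpud1 and in 0.0365% of all windows. The letters TGACGTGG of the unfolded protein response element (UPRE) were matched in 0.676% of all windows and in 0 of the 10 genes.
Chac1, chr2:119350992-119351291, plus strand, with a CARE on the opposite strand 193 bases before the start:
Chac1: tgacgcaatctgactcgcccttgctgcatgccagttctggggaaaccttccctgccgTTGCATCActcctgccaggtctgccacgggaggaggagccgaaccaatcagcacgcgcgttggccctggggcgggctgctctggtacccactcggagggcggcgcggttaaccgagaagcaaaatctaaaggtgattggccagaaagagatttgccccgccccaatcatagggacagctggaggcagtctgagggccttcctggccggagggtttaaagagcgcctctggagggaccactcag
Trib3, chr2:152344011-152344310, minus strand, with a CARE on the opposite strand 14 bases after the start:
Trib3: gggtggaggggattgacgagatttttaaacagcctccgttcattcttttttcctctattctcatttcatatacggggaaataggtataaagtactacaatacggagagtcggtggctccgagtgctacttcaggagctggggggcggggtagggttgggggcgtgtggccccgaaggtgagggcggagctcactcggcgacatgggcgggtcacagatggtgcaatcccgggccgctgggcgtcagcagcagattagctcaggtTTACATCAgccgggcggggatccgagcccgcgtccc
Herpud1, chr8:94386179-94386478, plus strand, with a CARE on the opposite strand 112 bases before the start and an ERSE-II 52 bases before it:
Herpud1: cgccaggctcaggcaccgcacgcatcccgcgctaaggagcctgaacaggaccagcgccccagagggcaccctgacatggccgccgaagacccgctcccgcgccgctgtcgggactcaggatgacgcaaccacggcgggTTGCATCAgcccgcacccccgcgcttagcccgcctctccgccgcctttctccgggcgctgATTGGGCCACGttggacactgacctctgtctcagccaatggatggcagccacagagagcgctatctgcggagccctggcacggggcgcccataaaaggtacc
Hspa5, chr2:34771840-34772139, plus strand, with an ERSE 65 bases before the start:
Hspa5: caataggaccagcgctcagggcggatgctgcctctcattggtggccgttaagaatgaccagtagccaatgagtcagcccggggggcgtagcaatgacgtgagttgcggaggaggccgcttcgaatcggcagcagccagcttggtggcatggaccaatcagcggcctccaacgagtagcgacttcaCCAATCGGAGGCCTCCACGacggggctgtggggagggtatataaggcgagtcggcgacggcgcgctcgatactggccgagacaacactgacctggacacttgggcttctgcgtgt

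Levels are given as log2 processed signal minus the 75th percentile of the same array, so that 0 marks that percentile and a difference of 1 is a doubling. A gene was called when limma's moderated test gave an adjusted p (Benjamini-Hochberg over all genes tested) below 0.05. The 75th percentile lay between 268.3 and 1031.3 units. On a given array, between 52.4% and 71.5% of probes exceeded background clearly by the scanner software's criterion. All 11 thymocyte markers, among them Cd3e, were well above background on all 32 arrays. Cdkn1a, the p53 target that encodes p21, checked the labels. Its levels were -2.57 at 2 h and -2.17 at 4 h in irradiated p53-/- cells, against -3.30 and -3.41 in untreated p53-/- cells. Irradiated p53+/+ cells had 1.27 and 1.60, against -3.34 and -2.84 in untreated p53+/+ cells. Trp53 itself had levels of -0.25, -0.10, -0.50 and -0.47 on the p53-/- arrays and -0.13, 0.25, 0.02 and 0.06 on the p53+/+ arrays. The position of its probe relative to the deletion is not known, so it checks nothing. The labels give 1 male and 1 female per sample, yet the female-specific transcript Xist was low (-7.92 to -3.73) on all P72 and R72 arrays of replicates 1 and 3 and high (5.11 to 5.83) on those of replicates 2 and 4. Xist was also 5.50 on both irradiated p53+/+ arrays, against -0.88 and -1.45 on the untreated ones. On the p53-/- arrays Xist was low throughout (-8.82 to -7.20). In p53+/+ mice irradiation and this difference cannot be told apart. The same holds for genotype where irradiated p53-/- and p53+/+ cells, or their responses, are compared. The SD over genes of the log2 difference between replicate arrays was 0.458 to 0.610 for pairs with R72 2 h replicate 4, against 0.242 to 0.374 for the other 33 P72 and R72 pairs. Calls that use the R72 2 h arrays are therefore also given without that array. The untreated p53-/- pair differed by an SD of only 0.163, and each untreated pair was also averaged to 1 array.

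Chac1, which encodes a glutathione-degrading enzyme induced by ATF4 and CHOP, was not called at 2 h. At 4 h it rose most among the 10 genes in both codon 72 genotypes, each gene read by its brightest probe. A dimmer Trib3 probe rose more in R72 cells (1.82, against 1.52 for Chac1). The Chac1 probe lies at chr2:119095103-119095162 (mm7). In P72 cells its levels were -3.62, -3.80, -3.95 and -3.41 at 4 h, against -6.34, -5.67, -5.89 and -6.34 at 0 h. In R72 cells they were -3.84, -4.10, -4.71 and -4.30 at 4 h, against -5.27, -6.44, -5.33 and -5.99 at 0 h. Every 4 h array lay above every 0 h and 2 h array of its genotype. The 2 h levels were -5.31, -6.04, -7.01 and -5.35 in P72 cells and -5.80, -5.64, -5.14 and -5.51 in R72 cells. Chac1 is a dim probe, well above background on all 8 of the 4 h arrays but on 0 of 4 untreated P72 arrays and 1 of 4 untreated R72 arrays. It thus passed the filter largely through the groups where it was high. The untreated P72 level is therefore only an upper bound, and Chac1 was at least 4.08-fold higher at 4 h than at 0 h. That bound sets the 4 h mean against the higher of each untreated array's own Chac1 level and its lowest level well above background. The fitted log2 difference was 2.36 ± 0.32 (SE, adjusted p = 4.98e-06) in P72 cells and 1.52 ± 0.32 (adjusted p = 0.000703) in R72 cells. Relative to the median gene, which was at 0.11 in P72 cells and 0.09 in R72 cells, these were 2.26 and 1.42. With normexp background correction both calls were lost, at 1.06 in P72 cells (adjusted p = 0.0518) and 0.16 in R72 cells (adjusted p = 1). The R72 call was also lost with quantile normalization (0.73, adjusted p = 0.072), with replicates 1 and 3 only (1.02, adjusted p = 0.232) and with the later scan days only (1.15, adjusted p = 0.117). The sign held under every scaling tried.

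Trib3, a pseudokinase that is induced by ATF4 and CHOP and restrains ATF4, was read by 2 probes that differed. The dimmer probe (chr2:152079146-152079205, mm7) gave levels of -3.06, -2.03, -2.41 and -2.58 at 4 h in P72 cells, against -4.69, -4.62, -4.92 and -4.39 at 0 h. In R72 cells it gave -2.69, -2.62, -2.78 and -2.82 at 4 h, against -4.08, -4.68, -4.94 and -4.48 at 0 h. The groups did not overlap in either genotype, and the probe was well above background on all 32 arrays. In the fit of every probe on its own, it rose by 2.13 ± 0.22 in P72 cells at 4 h (SE, adjusted p = 3.04e-07, where 32.3% of all probes were called up) and by 1.82 ± 0.22 in R72 cells (adjusted p = 4.33e-06, 25.6% called up). At 2 h it had risen by 0.93 ± 0.22 in P72 cells (adjusted p = 0.00929, 8.10% called up), while the R72 value of 0.50 did not pass (adjusted p = 0.153). The P72 call at 2 h was kept in 8 of 15 other settings (0.34 to 1.10, highest adjusted p = 0.956) and was lost with normexp, with capped normexp and in the authors' value table. The P72 call at 4 h was kept in all 15 (0.89 to 2.20), and the R72 call at 4 h in 14 of 15, being lost with normexp (0.46, adjusted p = 0.729). The brighter probe (chr2:152078476-152078535, mm7), which stands for the gene in every count below because its mean level was higher, moved little. It gave -2.98, -3.13, -3.11 and -3.09 at 4 h in P72 cells, against -3.29, -3.67, -3.52 and -3.70 at 0 h, a difference of 0.47 ± 0.29 that did not pass (SE, adjusted p = 0.174). In R72 cells it gave -2.82, -2.67, -3.79 and -4.12 at 4 h, against -3.04, -3.31, -3.33 and -4.42 at 0 h, where replicates 3 and 4 lay low (difference 0.18, adjusted p = 0.65). Why the 2 probes differ was not tested.

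**Figure D1:**
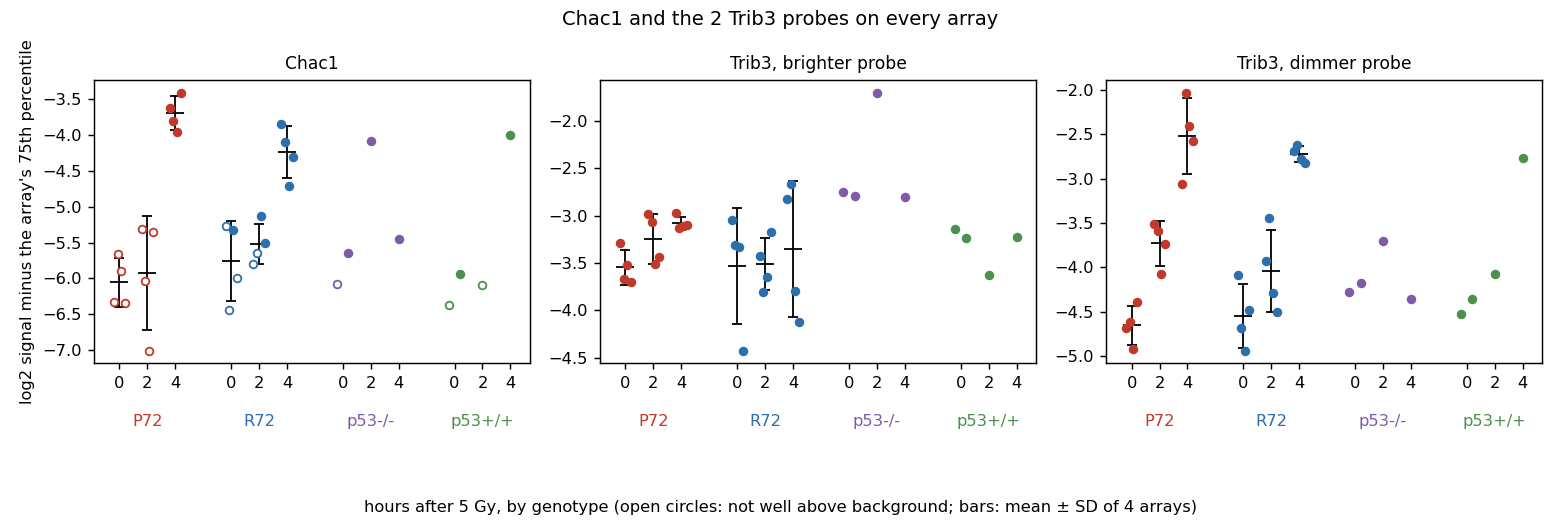
Levels of Chac1 and of both Trib3 probes (log2 signal minus the array's 75th percentile) against hours after 5 Gy in each genotype, 1 point per array, with mean ± SD where a group has 4 arrays. Chac1 and the dimmer Trib3 probe are highest at 4 h in P72 and R72 cells, and the single p53-/- array at 2 h is high for Chac1 (-4.08) and for the brighter Trib3 probe (-1.70).

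Ddit3, which encodes the transcription factor CHOP, moved far less at 4 h than Chac1 and the dimmer Trib3 probe. In P72 cells its levels were 0.96, 0.92, 0.83 and 0.85 at 2 h and 0.70, 0.84, 1.09 and 0.81 at 4 h, against 0.67, 0.55, 0.61 and 0.41 at 0 h. All irradiated P72 arrays lay above the untreated ones, by 0.33 ± 0.10 at 2 h (SE, adjusted p = 0.0363) and 0.30 ± 0.10 at 4 h (adjusted p = 0.0178), although the 4 h difference was -0.32 when arrays were scaled to their median. Under that scaling the median gene stood at -0.52 at 4 h. The 2 h call held on leaving out 2 of the 8 arrays and was lost without P72 0 h replicate 2, 3 or 4 or 2 h replicate 1, 2 or 4 (highest adjusted p = 0.112). The 4 h call was lost without 4 h replicate 3 (0.22, adjusted p = 0.081) or 0 h replicate 4 (0.25, adjusted p = 0.0641). In R72 cells the levels were 0.95, 0.99, 0.57 and 0.59 at 2 h and 0.99, 0.82, 0.83 and 0.80 at 4 h, against 0.81, 0.75, 0.83 and 0.57 at 0 h, and neither difference passed (0.03, adjusted p = 0.865, and 0.12, adjusted p = 0.375). The P72 response minus the R72 response at 2 h was 0.30 ± 0.15 (SE, 95% interval -0.01 to 0.60, adjusted p = 0.932), so a difference between the genotypes was not shown.

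Atf4 itself, the transcription factor at the centre of the integrated stress response, was not called in any comparison in the reported setting. Its P72 levels were 1.34, 1.49, 1.28 and 1.25 at 4 h, against 1.45, 1.32, 1.00 and 0.96 at 0 h. Its R72 levels were 1.61, 1.49, 1.14 and 1.21 at 4 h, against 1.66, 1.62, 0.97 and 1.31 at 0 h. The groups overlapped in both genotypes, with differences of 0.16 (95% interval -0.19 to 0.50) in P72 cells and -0.03 (95% interval -0.37 to 0.32) in R72 cells. With median scaling, however, Atf4 was called down at 4 h in P72 cells (-0.47, adjusted p = 0.0113), in R72 cells (-0.50, adjusted p = 0.00839) and in irradiated p53+/+ cells (-0.65, adjusted p = 0.0185). The median gene itself stood at -0.52, -0.38 and -0.32 in these comparisons under that scaling. With a slide or scan-day block it was called up in P72 cells between 2 h and 4 h (0.22, adjusted p = 0.0461 and 0.0443). Atf5, a related transcription factor that is also translated under eIF2-alpha phosphorylation, had R72 levels of 1.95, 2.02, 1.83 and 1.95 at 4 h, against 1.32, 1.60, 1.73 and 1.64 at 0 h. The R72 groups did not overlap, and Atf5 was higher at 4 h by 0.36 ± 0.10 (SE, adjusted p = 0.00721), though by median scaling the value was -0.11. The call held on leaving out each of the 8 arrays in turn. In P72 cells it had 1.78, 1.91, 1.88 and 1.80 at 2 h, against 1.62, 1.45, 1.58 and 1.42 at 0 h, a rise of 0.32 ± 0.10 (SE, adjusted p = 0.042). That call was lost on leaving out any 1 of the 8 P72 arrays at 2 h and 0 h (adjusted p 0.0532 to 0.109), and at 4 h the P72 difference of 0.18 did not pass (adjusted p = 0.145).

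Xbp1, the transcription factor made active by IRE1 splicing, was the 1 gene of the 10 that fell in P72 and R72 cells. Its P72 levels were 1.15, 1.39, 1.31 and 1.09 at 2 h and 1.28, 1.22, 1.01 and 1.28 at 4 h, against 1.98, 1.94, 1.49 and 1.68 at 0 h. No irradiated P72 array reached an untreated one, and the difference was -0.54 ± 0.15 at 2 h (SE, adjusted p = 0.0196) and -0.58 ± 0.15 at 4 h (adjusted p = 0.00267). The 4 h call held on leaving out each array (-0.67 to -0.51), whereas the 2 h call was lost without 0 h replicate 1 or 2 or 2 h replicate 1 or 4 (adjusted p up to 0.0702). R72 levels were 1.44, 1.28, 0.90 and 0.94 at 2 h and 1.42, 1.42, 1.04 and 1.45 at 4 h, against 1.98, 1.63, 1.32 and 1.56 at 0 h. The R72 difference was -0.48 ± 0.15 at 2 h (SE, adjusted p = 0.0385) and -0.29 at 4 h (adjusted p = 0.125). Without R72 2 h replicate 4, the array that stood apart, it was -0.41 (adjusted p = 0.0941), and the call was also lost without R72 0 h replicate 1, 2 or 4 or 2 h replicate 3 (adjusted p up to 0.118).

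Of the ER genes that XBP1 and ATF6 are known to raise, Hspa5, Herpud1, Dnajb9 and Pdia4, none was called in P72 or R72 cells in the reported setting, whereas median scaling called the first 3 down at 4 h in both genotypes. Under median scaling the median gene itself stood at -0.52 in P72 and -0.38 in R72 cells at 4 h against 0 h. Hspa5, the main ER chaperone BiP, had P72 levels of 3.97, 3.89, 4.01 and 4.15 at 4 h, against 4.12, 4.17, 4.13 and 4.21 at 0 h. It had R72 levels of 4.04, 4.09, 3.80 and 4.18 at 4 h, against 3.90, 4.03, 4.40 and 4.27 at 0 h. The groups overlapped in both genotypes, and neither the P72 difference (-0.15, adjusted p = 0.224) nor the R72 difference (-0.12, adjusted p = 0.365) passed. With median scaling these were -0.77 (adjusted p = 9.4e-05) and -0.60 (adjusted p = 0.00151), and at 2 h in P72 cells -0.44 (adjusted p = 0.038). Herpud1, which takes part in ER-associated degradation and whose promoter above holds both a CARE and an ERSE-II, ranged from 2.40 to 2.74 in P72 cells at 4 h, against 2.39 to 2.44 at 0 h (difference 0.11, adjusted p = 0.315). It ranged from 2.42 to 2.72 in R72 cells at 4 h, against 2.37 to 2.64 at 0 h (0.10, adjusted p = 0.415). The sign of Herpud1 turned with the scaling, while under median scaling its values lay at those of the median gene. Median scaling called it down at 4 h, by -0.51 in P72 cells (adjusted p = 0.000877) and -0.38 in R72 cells (adjusted p = 0.0104), whereas quantile normalization (0.23, adjusted p = 0.0259) and the authors' value table (0.23, adjusted p = 0.0207) called it up in P72 cells. Dnajb9, an ER co-chaperone of BiP, differed by -0.11 in P72 cells at 4 h (adjusted p = 0.202), and none of its 3 probes was called in any P72 or R72 comparison in the reported setting. With median scaling Dnajb9 was called down at 4 h against 0 h, with -0.73 in P72 cells (adjusted p = 2.04e-05) and -0.55 in R72 cells (adjusted p = 0.000624), and also against 2 h in both. Pdia4, a protein disulfide isomerase, differed by 0.01 in P72 cells and by 0.21 in R72 cells at 4 h (adjusted p = 0.534 in R72). Its arrays spread widely, from -0.07 to 0.75 in untreated P72 cells alone.

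**Figure D2:**
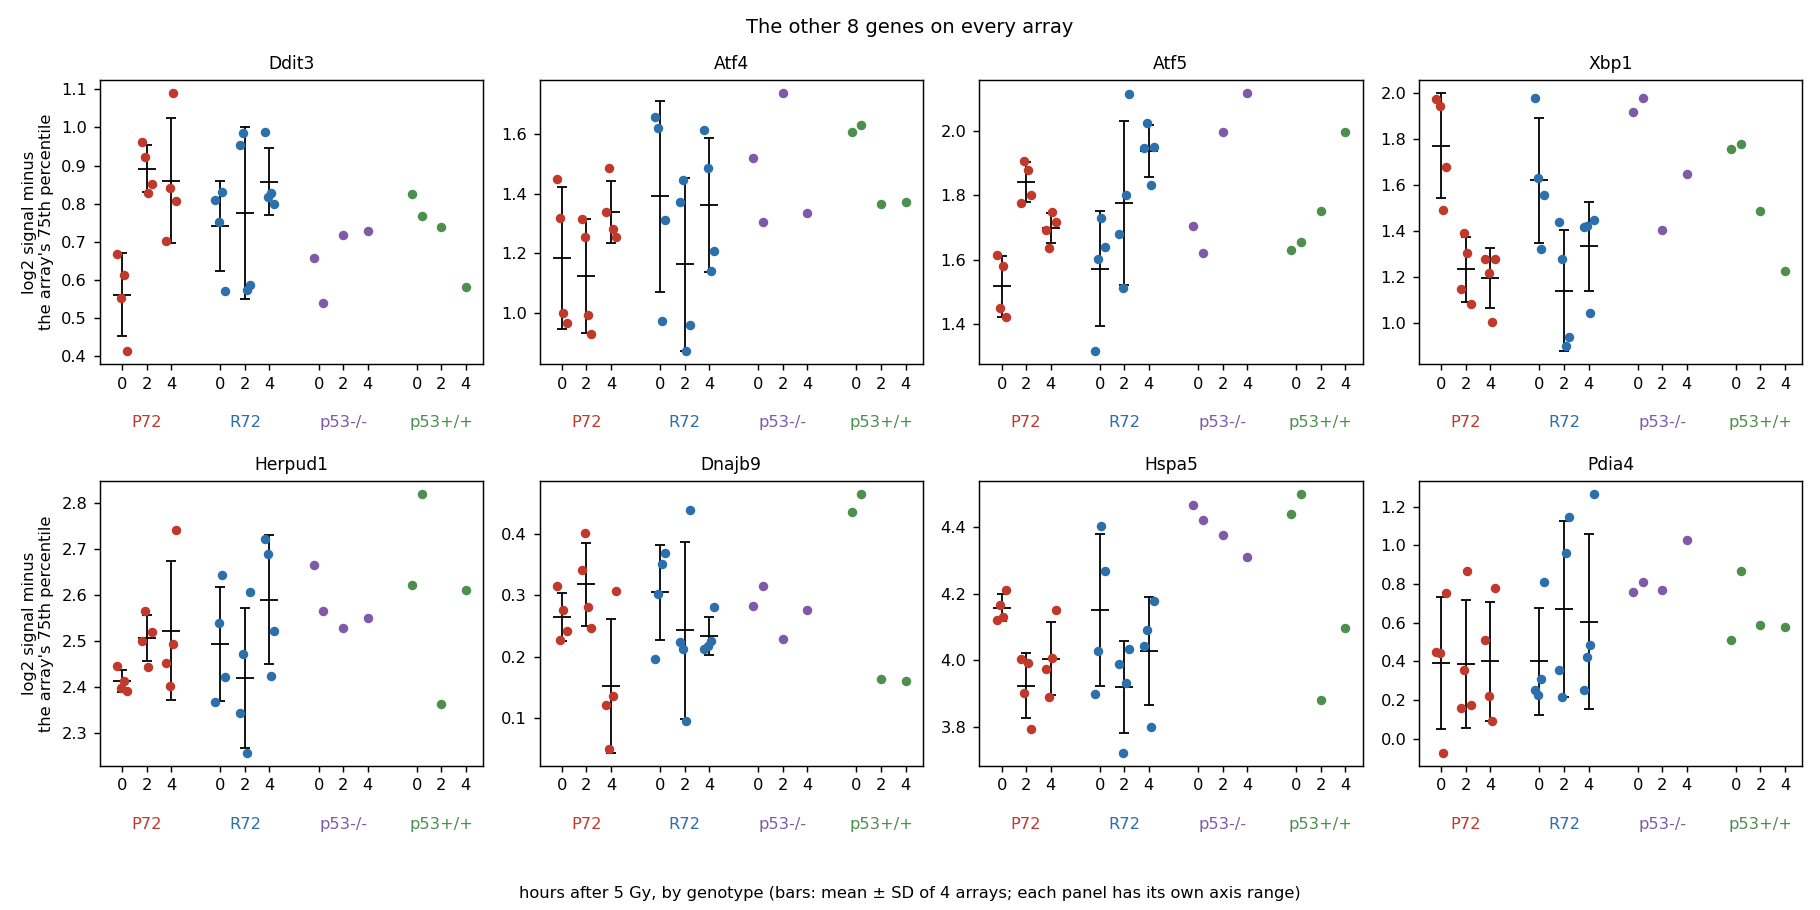
Levels of the other 8 genes (log2 signal minus the array's 75th percentile, an axis range of its own in each panel) against hours after 5 Gy, 1 point per array, with mean ± SD where a group has 4 arrays. Xbp1 is lower on all irradiated P72 arrays than on the untreated ones and Ddit3 is higher, though the Ddit3 difference at 4 h is -0.32 with median scaling. That scaling moves the median gene to -0.52 in P72 cells.

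Counted over the 10 genes, 2 rose and 1 fell in P72 cells at 2 h, where 9.63% of all genes tested were called up and 4.81% down. At 4 h, again 2 rose and 1 fell in P72 cells, where 35.9% of all genes were called up and 20.7% down, and between 2 h and 4 h 1 rose and 0 fell (21.5% up, 10.6% down). In R72 cells 0 rose and 1 fell at 2 h (6.16% up, 6.87% down), 2 rose and 0 fell at 4 h (28.8% up, 16.0% down), and 1 rose and 0 fell between 2 h and 4 h (16.1% up, 4.86% down). These shares at 4 h, 3 of 10 in P72 cells and 2 of 10 in R72 cells, were below the 56.6% and 44.8% called among all genes. The 2 h and 4 h comparisons of a genotype share its 0 h arrays. Chac1 was the 1 gene called between 2 h and 4 h in each genotype, by a fitted 2.23 in P72 cells (adjusted p = 7.65e-05) and 1.28 in R72 cells (adjusted p = 0.00879). Its probe was well above background on 0 of 4 P72 and 2 of 4 R72 arrays at 2 h, so that the P72 level at 2 h is also an upper bound. The P72 increase between these times was at least 3.29-fold. Without R72 2 h replicate 4 the R72 value was 1.29 and still called. The R72 call was kept in 7 of 14 other settings (0.25 to 1.75) and was lost with quantile normalization, normexp and the authors' value table among others.

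Whether codon 72 changes these genes was asked by setting P72 against R72 directly. None of the 10 was called at 0 h, 2 h or 4 h by limma (0.906%, 1.28% and 1.25% of all genes called). At an unadjusted p under 0.05 the counts were 0, 0 and 1, with no share of all genes at that cut-off beside them. None differed in its response either, at 2 h (0.00487% of all genes called) or at 4 h (0%), where 0 passed even unadjusted. The widest response difference was that of Chac1 at 4 h, 0.85 ± 0.45 (SE, 95% interval -0.09 to 1.79, adjusted p = 0.93). That of the dimmer Trib3 probe was 0.32 ± 0.32 (95% interval -0.35 to 0.98). These intervals leave room for differences of either sign in size up to their ends. The Chac1 value also subtracts untreated levels near background, well above it on 0 of 4 P72 and 1 of 4 R72 arrays. Its interval does not cover that limit.

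The p53-/- and p53+/+ mice ask whether the responses need p53, with 1 array per genotype at each time after irradiation. Chac1 had levels of -4.08 at 2 h and -5.45 at 4 h in irradiated p53-/- cells, against -6.08 and -5.65 in untreated p53-/- cells. In p53+/+ cells it had -6.09 at 2 h and -3.99 at 4 h, against -6.37 and -5.94 untreated. The higher irradiated array was thus the 2 h one in p53-/- cells and the 4 h one in p53+/+ cells. With both times averaged, the change was 1.10 ± 0.44 in p53-/- cells (SE, adjusted p = 0.275) and 1.11 ± 0.44 in p53+/+ cells (adjusted p = 0.069), and the difference between them was -0.01 ± 0.62 (95% interval -1.30 to 1.28). The averaged p53+/+ change of Chac1 was called with the slide as a random block (1.11) and with only the 8 p53-/- and p53+/+ arrays (1.11). Taken singly, the p53+/+ arrays stood above the untreated mean by 0.06 at 2 h and 2.16 at 4 h, the p53-/- arrays by 1.78 and 0.42. The dimmer Trib3 probe had -3.70 and -4.36 in irradiated p53-/- cells, against -4.28 and -4.18 untreated, and -4.07 and -2.77 in irradiated p53+/+ cells, against -4.52 and -4.36 untreated. It changed by 0.20 ± 0.30 in p53-/- cells (SE, adjusted p = 0.892) and by 1.02 ± 0.30 in p53+/+ cells (adjusted p = 0.0196, where 11.7% of all probes were called up), with a difference of -0.82 ± 0.43 that did not pass (95% interval -1.71 to 0.07). The p53+/+ call was lost without either untreated p53+/+ array (adjusted p = 0.0642 and 0.103) and with the untreated pair averaged (0.105).

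On the brighter Trib3 probe the p53-/- array at 2 h stood at -1.70 and that at 4 h at -2.80, against -3.62 and -3.22 in irradiated p53+/+ cells. Averaged over both times, this was 1.17 ± 0.39 higher in p53-/- cells (SE, adjusted p = 0.0351), the 1 gene of the 10 called there, where 8.79% of all genes were called up and 13.1% down. The call rests on the 2 h array: the difference was 1.93 with the 2 h arrays only (adjusted p = 0.0583) and 0.42 with the 4 h arrays only (adjusted p = 0.644). The dimmer Trib3 probe ran the other way in that comparison, at -0.61 ± 0.30 (SE, adjusted p = 0.155). It was called down with only the 8 p53-/- and p53+/+ arrays fitted (adjusted p = 0.0383), with capped normexp (-0.72, adjusted p = 0.0408) and with the 4 h arrays only (-1.59, adjusted p = 0.02). In p53-/- cells 0 of 10 genes were called after irradiation by limma (1.05% of all genes called). At an unadjusted p under 0.05 the count was 3 of 10, with no share of all genes at that cut-off to set beside it. Hspa5 there had 4.38 and 4.31 after irradiation, against 4.46 and 4.42 untreated. In p53+/+ cells Hspa5 had 3.88 and 4.10 after irradiation, against 4.44 and 4.50 untreated, and fell by 0.48 ± 0.14 (SE, adjusted p = 0.0175). Dnajb9 had 0.16 on both irradiated p53+/+ arrays, against 0.43 and 0.46 untreated, and fell by 0.29 ± 0.10 (adjusted p = 0.0379). These were the 2 of 10 genes called down in p53+/+ cells (10.6% of all genes down, 13.0% up), and both calls were lost without either untreated p53+/+ array (adjusted p 0.0575 to 0.149) and with the untreated pair averaged (0.0986 and 0.158). The change of Hspa5 in p53-/- minus p53+/+ cells was 0.38 ± 0.20 (adjusted p = 0.261), and 0 of 10 responses differed between the genotypes, 0 also unadjusted (5.30% of all genes). Untreated p53-/- and p53+/+ cells differed in 0 of 10 genes, 0 also unadjusted (0.706% of all genes).

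**Figure D3:**
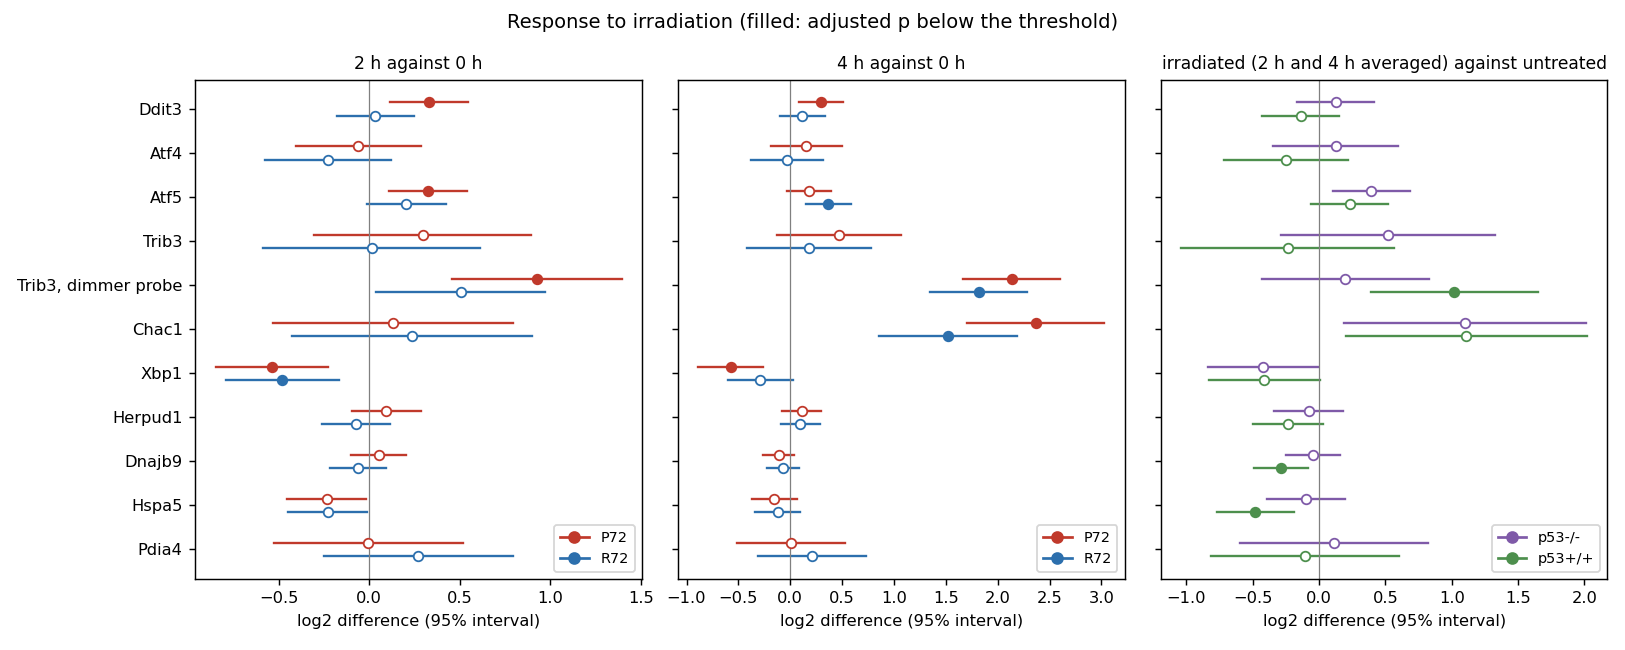
Fitted log2 differences with 95% intervals for the 10 genes and the dimmer Trib3 probe at 2 h and 4 h against 0 h in P72 and R72 cells, and for irradiated against untreated p53-/- and p53+/+ cells; filled points passed the test. At 4 h only Chac1 and the dimmer Trib3 probe exceed 1, whereas the 4 h values of Ddit3 and Atf5, all under 0.4, change sign with median scaling. That scaling moves the median gene to -0.52 in P72 and -0.38 in R72 cells.

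Genes outside the 10 show how the rest of the pathway moved. Of 15 sensors and regulators tested (16 listed), 6 were called up and 5 down in P72 cells at 4 h, and 5 up and 3 down in R72 cells. These shares, 40% and 33.3% up, stand beside 35.9% and 28.8% of all genes called up, and with median scaling the counts were 1 up and 9 down in each genotype. That scaling moved the median gene itself to -0.52 in P72 and -0.38 in R72 cells. Counts under it carry no share of all genes and are not results about the list. Eif2ak3, which encodes PERK, had levels of 3.85, 4.07, 4.45 and 4.54 at 4 h in P72 cells, against 2.00, 1.78, 1.62 and 1.71 at 0 h, and rose by 2.45 ± 0.15 (adjusted p = 1.5e-10). In R72 cells Eif2ak3 rose by 2.14 (adjusted p = 1.9e-09). Its p53-/- levels were 2.06 and 2.30 after irradiation, against 2.11 and 2.05 untreated. Its p53+/+ levels were 2.78 and 4.58, against 2.17 and 2.30 untreated. Its response differed by -1.34 ± 0.29 between p53-/- and p53+/+ cells (adjusted p = 0.00686). Eif2s1, the eIF2-alpha subunit that PERK phosphorylates, fell by 0.96 in P72 and by 0.73 in R72 cells. Ern1 rose by 0.85 in P72 cells (adjusted p = 0.00127) and by 0.79 in R72 cells, though with median scaling neither was called (0.23 and 0.31). Atf6 had differences of 0.47 and 0.42 and was called in both, but with median scaling the values were -0.15 and -0.05. Ppp1r15a (GADD34), which restores translation, rose by 0.55 in P72 cells (adjusted p = 0.023), which was -0.08 with median scaling.

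The other ER chaperones and foldases were called down and never up after irradiation. In P72 cells at 4 h 12 of 16 fell (20.7% of all genes down), with a list median of -0.36 against 0.11 for all genes. In R72 cells 8 of 16 fell (16.0% of all genes down), with a median of -0.25 against 0.09. Sdf2l1, an ER protein quality control factor, had a difference of -0.78 in P72 and -0.73 in R72 cells, and Fkbp2, an ER prolyl isomerase, of -0.68 in P72 and -0.53 in R72 cells. Pdia6, a disulfide isomerase, had -0.50 in P72 cells, and Ero1a, the oxidase that reloads those isomerases, -0.44. The count varied with the arrays used. With replicates 1 and 3 only, 4 fell in P72 and 0 in R72 cells, and with replicates 2 and 4 only, 2 fell in each. With median scaling 16 and 14 fell. That scaling moved the median gene itself to -0.52 in P72 and -0.38 in R72 cells. Counts under it, here and below, carry no share of all genes and are not results about the lists. In p53-/- cells 0 of 16 were called after irradiation (median -0.05), where only 1.05% of all genes were called. In p53+/+ cells 7 of 16 fell (median -0.35, 10.6% of all genes down), but 2 without untreated p53+/+ replicate 1 and 1 without replicate 2. The response of Ero1a differed by 0.54 (adjusted p = 0.043). Of 17 genes of ER-associated degradation and secretion, 2 rose and 6 fell in P72 cells at 4 h and 2 rose and 4 fell in R72 cells. That is 11.8% up in each and 35.3% and 23.5% down, beside 35.9% and 28.8% up and 20.7% and 16.0% down among all genes. Leaving out 1 R72 array gave 1 to 3 that fell there, with 1 left without replicate 2 or 3 of either time, and with median scaling 15 fell in each genotype. Derl3, a channel component of that pathway, rose by 1.23 in P72 and 0.71 in R72 cells, the R72 call being lost with median scaling (0.24), and Ssr1, a translocon subunit, fell by 0.59 and 0.53.

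Of 28 other ATF4 and CHOP target genes, 15 rose and 7 fell in P72 cells at 4 h (list median 0.66) and 13 rose and 5 fell in R72 cells (median 0.29), and these counts were 9 and 11, and 6 and 10, with median scaling. That scaling moved the median gene itself to -0.52 and -0.38, and no share of all genes stands beside its counts. In the reported setting the shares that rose, 53.6% and 46.4%, stand beside 35.9% and 28.8% of all genes. The shares that fell, 25% and 17.9%, stand beside 20.7% and 16.0%. Atf3, a stress-induced transcription factor, rose by 4.78 ± 0.21 in P72 cells (adjusted p = 1e-12) and by 3.94 in R72 cells, and Gdf15, a stress cytokine, by 5.50 and 4.24. Sesn2, an inhibitor of mTORC1 signalling, rose by 1.88 and 1.81. All 3 are also known p53 targets. Their responses were lower in p53-/- than in p53+/+ cells, the difference being -2.97 for Atf3 (adjusted p = 5.4e-05), -2.27 for Gdf15 (adjusted p = 0.0131) and -3.41 for Sesn2 (adjusted p = 7.83e-09). Shmt2, a mitochondrial enzyme of serine metabolism, fell by 1.56 in P72 and 1.55 in R72 cells. Over the list, 1 rose and 0 fell in irradiated p53-/- cells, and 10 rose and 4 fell in irradiated p53+/+ cells (13.0% of all genes up, 10.6% down), with 2 that fell without untreated p53+/+ replicate 2. The 12 aminoacyl-tRNA synthetase genes, which ATF4 is known to raise, were called down or not at all. Of these, 8 fell in P72 cells at 4 h and 7 in R72 cells, beside 20.7% and 16.0% of all genes. In p53-/- cells 0 were called, where 1.05% of all genes were, and in p53+/+ cells 4 fell (10.6% of all genes). Among them Yars had differences of -0.75 in P72 and -0.73 in R72 cells.

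Asns, the asparagine synthetase gene and a standard ATF4 target, was the only list gene called between P72 and R72 cells at each of 0 h, 2 h and 4 h. Its P72 levels at 0 h were -2.54, -1.79, -2.14 and -1.99, against 0.58, 0.62, 1.04 and 0.72 in R72 cells. The 2 genotypes did not overlap at 0 h, and the P72 level was lower by 2.86 on the log2 scale, a 7.24-fold difference (adjusted p = 2.2e-09, where 0.609% of all genes were called down). At 4 h P72 levels were -1.57, -1.41, -1.62 and -1.41, against 0.73, 0.26, 0.54 and 0.60 in R72 cells, a difference of -2.04 (adjusted p = 3.75e-07). Untreated p53-/- cells (-2.21 and -2.34) and p53+/+ cells (-2.07 and -1.92) lay near the P72 level. At 2 h the Asns difference was -2.29 (adjusted p = 6.71e-08), and -2.25 without R72 2 h replicate 4. The other list genes called between P72 and R72, all higher in P72, were Gdf15 (1.25, adjusted p = 0.025) and Pck2 (0.54, adjusted p = 0.0285) at 4 h and Fgf21 at 2 h (2.01, adjusted p = 0.0194). Fgf21 was well above background on 4 of 4 P72 but only 2 of 4 R72 arrays at 2 h, and its fitted difference was 2.09 without R72 2 h replicate 4 (adjusted p = 0.0425). Fgf21 and Pck2 are named here after their values were seen. Within P72 cells Asns rose by 0.61 at 4 h (adjusted p = 0.00301), which was -0.01 with median scaling, and the R72 difference was -0.21 (adjusted p = 0.317).

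**Figure D4:**
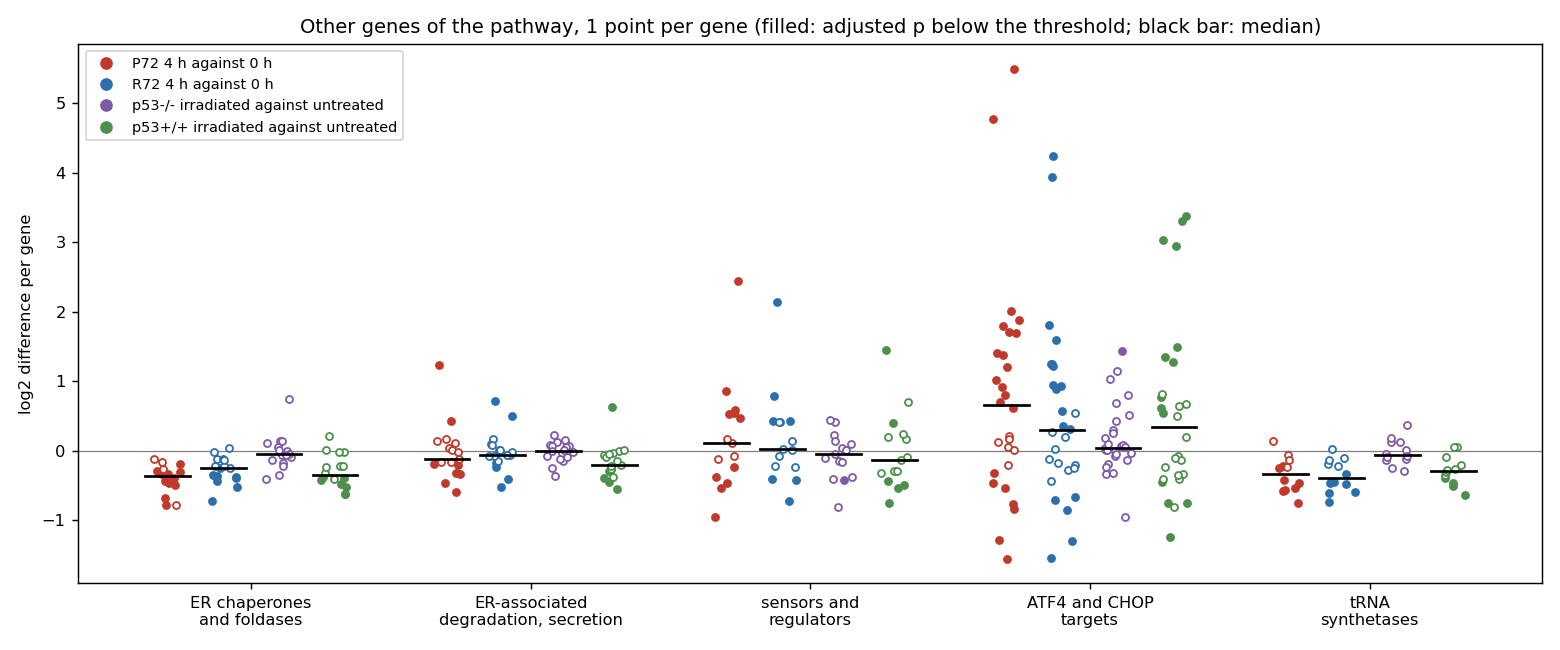
Log2 difference of each listed pathway gene in P72 and R72 cells at 4 h against 0 h and in irradiated against untreated p53-/- and p53+/+ cells, 1 point per gene, filled where called, with the list median as a bar. ER chaperones and tRNA synthetases lie mostly below 0 in P72, R72 and p53+/+ cells (medians -0.25 to -0.40), ATF4 and CHOP targets spread widely to both sides, and nearly all p53-/- points are open. With median scaling the ATF4 and CHOP counts turn to 9 up and 11 down in P72 cells, where the median gene moves to -0.52.

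Markers of other cells moved beside these results. The counts of markers called stand beside the shares of all genes. Called up were 35.9% of all genes in P72 and 28.8% in R72 cells at 4 h, and 13.0% in p53+/+ cells. Called down were 20.7%, 16.0% and 10.6%, and in p53-/- cells 1.05% were called either way. In P72 cells the summed linear level of 7 dendritic cell markers was 42.3 to 53.4 at 4 h, against 17.8 to 30.8 at 0 h (5 of 7 called up), of 7 neutrophil markers 69.9 to 143.6, against 34.9 to 61.8 (7 of 7 up), and of 8 thymic epithelium markers 32.8 to 42.9, against 6.21 to 14.6 (6 of 8 up). Of 8 macrophage markers 5 were called up (7.46 to 8.67 at 4 h, against 3.29 to 6.06), and of 9 B and plasma cell markers 6 were called up and 1 down (14.2 to 17.7, against 7.48 to 9.36). In R72 cells the dendritic markers summed to 25.1 to 49.1 at 4 h, against 19.1 to 25.3 at 0 h (5 of 7 up), and the neutrophil markers to 66.6 to 136.1, against 67.5 to 86.6 (0 called). The thymic epithelium markers there summed to 31.9 to 52.8 at 4 h, against 17.0 to 21.2 (2 of 8 up), and the B and plasma cell markers to 9.34 to 12.3, against 6.32 to 7.79 (5 up, 1 down). In p53-/- cells the epithelium markers summed to 13.5 at 2 h and 11.6 at 4 h, against 19.2 and 19.8 untreated (0 called), and the neutrophil markers to 40.7 and 47.7, against 38.7 and 39.0 (0 called). In p53+/+ cells the epithelium markers summed to 16.8 at 2 h and 34.1 at 4 h, against 18.5 on both untreated arrays (1 of 8 up). The p53+/+ neutrophil markers summed to 41.6 and 87.2, against 29.1 and 29.7 (3 of 7 up). The thymocyte markers summed to 813.0 to 899.7 at 4 h, against 757.7 to 874.1 at 0 h, in P72 cells (1 up, 4 down) and to 872.3 to 916.3, against 763.3 to 846.7, in R72 cells (2 up, 3 down). Of the erythroid markers 0 of 3 tested were called in P72 cells, and among markers of other cells Pdgfra was well above background on 4 of 32 arrays, Cdh5 on 9 and Elane on 15. The part of these cells in the changes of Chac1, Trib3, Xbp1 and the gene lists was not tested.

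Over the 24 P72 and R72 arrays, the genes whose levels ran most like each member were found by Pearson's r among 20500 genes. For Chac1 these were Serpinb9 (0.923), Stat4 (0.92) and Tnfaip2 (0.917), for Xbp1 Pim3 (0.82), Snd1 (0.813) and Fnbp1 (0.807), and for Ddit3 Rad52 (0.818), Ikbke (0.806) and Wasf1 (0.777). Among the genes most like Pdia4 were Golga5 (0.892) and Nsmce3 (0.868), and Atf5 ran most like Hipk3 (0.832), Hspa5 like Dnmt3b (0.778) and Atf4 like Ubac2 (0.805). The brighter Trib3 probe ran most like Pla2g4b (0.771), Herpud1 like Adarb1 (0.791) and Dnajb9 like Mpc2 (0.828). Between members, over their 45 pairs, r was between -0.618 (Atf5 and Xbp1) and 0.526 (Atf5 and Herpud1), and 24 pairs were above 0. These values are descriptions, since the arrays share 6 groups, the scaling and the slides.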

How the data were processed

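RNA of thymocytes was hybridised with Cy3 to 32 one-colour Agilent arrays. Per the file headers, the deposited files are scanner output of Agilent Feature Extraction (version 9.5.3 per the submitters' processing notes), whose processed signal is a background-corrected intensity in linear units, with probe positions in mm7. The authors also deposited a value table on a log2 scale, whose normalization is not given in the sources used here; it served as an alternative. The 1639 control spots were left out, which kept 43379 spots, and outlier-flagged values (0.223%) were also left out. Intensities were converted to log2, each array's 75th percentile was subtracted, and spots of a probe were averaged. Of 41174 probes, 22951 have a current symbol, which for 5141 of these was an updated one. Probes had to be well above background on at least 4 arrays. Where several probes of a gene passed, the brightest on average represented it. limma 3.58.1 (R 4.3.3; lmFit, eBayes) was fitted over the 24 P72 and R72 arrays, and over all 32 arrays for p53-/- and p53+/+, where a lone array is assumed to vary like the replicated groups. P-values were adjusted by Benjamini-Hochberg over all genes tested. The number of arrays limits the precision. In data simulated for P72 4 h against 0 h, 67, 67 and 66 of 20479 genes were changed 1.5-fold, 2-fold and 4-fold. The fit recovered 44.8%, 65.7% and 89.4% of them. In the real comparison 56.6% of all genes were called, which makes the adjusted threshold less strict. The simulated shares therefore do not hold for that comparison.

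The 10 members and the gene lists were chosen with earlier results of these data known. Named beyond them were, from each list, up to 4 genes with the smallest adjusted p in P72 cells at 4 h, always Eif2ak3, Ern1, Atf6, Ppp1r15a, Asns and Atf3, the label checks Trp53 and Cdkn1a, and for each member the 3 genes with the highest correlation. Alternatives were background correction, scaling, filters, every probe, the authors' table, blocks for replicate number, slide and scan day, and subsets of arrays. Arrays of single scan days or times, capped normexp, averaged untreated pairs and listed genes at 2 h without R72 2 h replicate 4 were added after seeing the data. Exon and UTR annotation of the probes was not analysed here, and a few gene values are not reported here.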

Additional observations from a re-analysis of the deposited data

Results flagged for a closer look

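Among 78 groups of 4 arrays, 3 held an array whose gap to the nearest other array, as a share of the group's range, was above Dixon's 95% critical value for 4 samples. Chance gives that in about 1 of 20 groups. The shares in these groups were 0.859, 0.86 and 0.923. Ddit3 had 0.99 on R72 4 h replicate 1, above 0.82, 0.83 and 0.80 on the others. Pdia4 had 0.81 on R72 0 h replicate 4, above 0.25, 0.23 and 0.31. Xbp1 had 1.04 on R72 4 h replicate 3, below 1.42, 1.42 and 1.45.

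Listed genes, none of them among the 10, whose response to irradiation differed between p53-/- and p53+/+ cells in the test of that difference were Atf3 (-2.97, p53-/- minus p53+/+), Sesn2 (-3.41), Gdf15 (-2.27) and Eif2ak3 (-1.34), which responded less in p53-/- cells. Shmt2 (1.29), Eif2s1 (0.76), Ero1a (0.54) and Iars (0.52), each with a fall in p53+/+ cells, had positive differences.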

How the results depend on the processing

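The replicate numbers were not used to pair the samples, but they carry some shared structure. Deviations from group means of arrays that share a number correlated by -0.27 to 0.53 (median 0.12 over 60 pairs). For 180 pairs that do not share one, the median was -0.03. Xist also split the P72 and R72 arrays by number, and replicates 1 and 2 shared the first scan day. A replicate block changed no count of genes called among the 10 by over 1.5 times, and under it Xbp1 was also called in R72 cells at 4 h (-0.29, adjusted p = 0.0375). The counts called among the 10 were, in the reported setting, 3 at 2 h, 3 at 4 h and 1 between these times in P72 cells, 1, 2 and 1 in R72 cells, 2 in p53+/+ cells, and 1 between irradiated p53-/- and p53+/+ cells. With median scaling, which moved the median gene to -0.52 in P72 and -0.38 in R72 cells at 4 h, the counts were 8 at 4 h and 6 between times in P72 cells, 7 and 3 in R72 cells, 6 in p53+/+ cells, 8 between irradiated p53-/- and p53+/+ cells and 1 for the difference of their responses. The median gene also moved to -0.32 in p53+/+ cells and to 0.33 between irradiated p53-/- and p53+/+ cells. No share of all genes stands beside these counts. Some values that were called in either of the 2 settings changed sign with median scaling. At 4 h against 0 h these were Ddit3 (-0.32), Atf4 (-0.47), Atf5 (-0.44) and Herpud1 (-0.51) in P72 cells. In R72 cells they were Ddit3 (-0.36), Atf5 (-0.11) and Herpud1 (-0.38). Against 2 h they were Herpud1 in P72 (-0.40) and Ddit3 in R72 cells (-0.28). Quantile normalization gave 5 at 4 h in P72 cells, 0, 1 and 0 in R72 cells and 0 in p53+/+ cells. With normexp the counts were 0, 1 and 0 in P72 cells, 0, 0 and 0 in R72 cells, 0 in p53+/+ cells and 0 between irradiated genotypes; with very high local background values, present on 4 arrays, capped, the counts were 1 at 2 h in P72 cells, 0 at 2 h and 2 between times in R72 cells and 1 in p53+/+ cells. The authors' table gave 0 at 2 h in R72 cells, 1 in p53-/- and 0 in p53+/+ cells. Without a filter 1 was called at 2 h in P72, 0 at 2 h in R72 and 1 in p53+/+ cells. The filter on all 32 arrays dropped Chac1, leaving 0 between times in P72 cells and 1 at 4 h and 0 between times in R72 cells. Replicates 1 and 3 alone gave 0, 1 and 0 in P72 and 0, 0 and 0 in R72 cells, and replicates 2 and 4 alone 0 at 2 h in P72 and 0, 1 and 0 in R72 cells. The first scan day gave 1 at 2 h in P72 cells and 0 at 2 h and 0 between times in R72 cells, and the later days 0 at 2 h in P72 and 0, 0 and 0 in R72 cells. A slide block gave 1 at 2 h and 2 between times in P72 cells, and a scan-day block 2 between times. Either time alone gave 1 in p53+/+ cells and 0 between irradiated genotypes, and averaged untreated pairs gave 0 in p53+/+ cells. Leaving out 1 array gave 0 to 2 at 2 h, 2 to 3 at 4 h and 1 to 2 between times in P72 cells, 0 to 1, 2 to 2 and 1 to 2 in R72 cells, and 0 to 0 in p53+/+ cells. Apart from the settings with fewer arrays or genes, the cause of these moves was not tested. Over all other settings, 2345 single values kept their side of the threshold, and their direction where called. Another 95 lost a call, 43 gained one and 9 changed sign with a call in either setting. Sign changes of values uncalled in both settings were not counted. Signal near background limits Chac1, whose untreated and 2 h P72 levels are only bounds.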

Other observations

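The single p53-/- array at 2 h, chosen for a look after its values were seen, was high for several ATF4 targets at once. Against the mean of the untreated p53-/- arrays it stood higher by 1.78 for Chac1, 1.07 for the brighter Trib3 probe, 2.68 for Asns, 2.25 for Stc2, 1.78 for Jdp2 and 1.27 for Gdf15 on the log2 scale. On the p53-/- array at 4 h the same differences were 0.42, -0.03, 0.18, -0.64, 0.51 and 0.80. On the p53+/+ array at 2 h, against its untreated mean, they were 0.06, -0.44, 1.46, -0.78, -0.07 and 3.41. The genes named were the highest on the p53-/- array at 2 h among the members and the listed targets. The median of the 28 other ATF4 and CHOP targets there was 0.13, with Atf3 at -0.27 and Aldh1l2 at -0.64. Ddit3 stood at 0.12 there. The dimmer Trib3 probe had -3.70, against -4.28 and -4.18 untreated. At 2 h, 4 of 28 other ATF4 and CHOP targets (14.3%) and 2 of the 10 members (20%) were more than 2-fold above the untreated mean in p53-/- cells, against 3.03% of all genes, and at 4 h 0 of 28 and 0 of 10, against 2.61%. In p53+/+ cells 5 of 28 (17.9%) and 0 of 10 were so at 2 h, against 8.05% of all genes, and 10 of 28 (35.7%) and 1 of 10 at 4 h, against 23% of all genes. These are values of single arrays with no replicate check, and the p53-/- counts at 2 h re-use the values by which that array was chosen.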
